A study of Mus musculus with 8 samples.

Results

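The 6 genes studied here set the phosphorylation of the translation initiation factor eIF2α and were followed in DN3 thymocytes, the stage 3 cells among the CD4- CD8- (double-negative) thymocytes, which undergo β-selection. They are taken by symbol from a list drawn up with earlier results of these data known: Eif2ak1 (HRI), Eif2ak2 (PKR) and Eif2ak4 (GCN2), which are the eIF2α kinases other than PERK, Gcn1l1, the partner protein of GCN2, and Ppp1r15a (GADD34) and Ppp1r15b (CReP), the subunits that bring protein phosphatase 1 to eIF2α. The table of 16538 genes held 5 of the 6 listed symbols, and the remaining gene was there under its newer symbol Gcn1, for which RefSeq gives Gcn1l1 as a synonym, so all 6 genes were measured and all 6 passed the filter on low values. RNA was sequenced from DN3 cells sorted into TRIzol from 6-week-old C57BL/6 mice, with 4 control samples (Sel1l flox/flox, no Cre) and 4 Sel1l CKO samples (Sel1l flox/flox; CD2-iCre). SEL1L is the adaptor of the HRD1 ubiquitin ligase in ER-associated degradation, and the human CD2 promoter drives the iCre recombinase from early T-cell progenitors on, so both genotypes carry the floxed alleles and only the Sel1l CKO samples carry the transgene.

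Each of the 4 eIF2α kinases answers to its own kind of stress. HRI senses low heme and mitochondrial stress, PKR senses double-stranded RNA and is itself induced by interferon, GCN2 senses uncharged tRNA and stalled ribosomes with the help of GCN1, and PERK (Eif2ak3) senses unfolded proteins in the ER lumen. Phosphorylated eIF2α blocks the exchange factor eIF2B, which lowers general translation while messages such as Atf4 are translated more. CReP keeps eIF2α dephosphorylated in unstressed cells, and GADD34 is the inducible subunit that closes the loop, being known both as a target of ATF4 and CHOP and as a gene of rapid transcriptional induction by growth factors and DNA damage.

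The 8 libraries held between 32900253 and 50401359 reads counted on genes, as recovered from the steps between low values. Sel1l, the deleted gene, had 1.83, 1.66, 1.61 and 1.57 RPKM in the control samples against 0.917, 0.876, 1.32 and 1.23 RPKM in the Sel1l CKO samples, without overlap, counted over the whole gene and not the deleted part alone. By pair, the Sel1l CKO mean was 0.513 times that of control in replicates 1 and 2 and 0.801 times in replicates 3 and 4. RPKM is reads per kilobase of gene, scaled to library size, and the low values fit a gene length that includes introns (12137 of 15821 genes with a span and a value, 76.7%, gave whole reads within a tolerance of 0.05 reads). Levels of different genes are therefore compared only on exon length. The sum over 11 DN3 markers was 628 to 681 RPKM in control samples and 597 to 617 RPKM in Sel1l CKO, and Thy1 was the highest of them. Marker sums of other cell types were low, at 8.22 to 10.2 RPKM in control samples and 5.32 to 8.22 RPKM in Sel1l CKO for B cells, almost all of it Cd79b, at 3.59 to 6.28 and 2.001 to 4.07 RPKM for myeloid and dendritic cells, at 3.10 to 4.88 and 1.95 to 2.27 RPKM for thymic epithelium, mostly Epcam, which was called lower, and at no more than 2.66 RPKM for erythroid cells, where Alas2 was listed at 0 in every sample. Later thymocyte markers (5.20 to 8.68 RPKM over all samples) and NK and γδ markers (1.56 to 2.35 RPKM) overlapped between genotypes. The part of these cells in the results was not tested. Replicates 3 and 4 of both genotypes differed from replicates 1 and 2 for 0.992% of the 10177 genes tested, the labels name no batch, and the values within each pair of replicates are given where they matter.

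The promoters of the genes were read because 1 of the 6 members moved together with other genes across samples. RefSeq (GRCm38.p6) gave the 250 bases before the transcript start for 5 of the members, and Ppp1r15b was not in that table. In all, 8 motifs were searched on both strands: TGATGNAA (a C/EBP-ATF composite site of ATF4 targets), TGACGTCA (the cAMP response element), TGACGTGG (a UPR element), GAAANNGAAA (an interferon-stimulated response element), GAANNTTC (a heat shock element), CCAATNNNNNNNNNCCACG (the ER stress response element), TGANTCA (an AP-1 site) and the A/T core of the serum response element. A stretch can match more than 1 motif, as TGATGNAA and GAANNTTC do in the Asns promoter. The sequences shown are those of Ppp1r15a (chr7:45526269-45526518, minus strand), of Dusp1, a phosphatase gene whose level followed that of Ppp1r15a (chr17:26508473-26508722, minus strand), and of Chac1, an ATF4 target that rose (chr2:119350992-119351241, plus strand), 5′ to 3′, with each motif found in capitals.
Ppp1r15a promoter: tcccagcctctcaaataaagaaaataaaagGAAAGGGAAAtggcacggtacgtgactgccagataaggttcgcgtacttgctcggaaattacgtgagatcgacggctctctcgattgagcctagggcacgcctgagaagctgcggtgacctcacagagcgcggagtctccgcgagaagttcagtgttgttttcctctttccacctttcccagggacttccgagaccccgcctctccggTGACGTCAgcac
Dusp1 promoter: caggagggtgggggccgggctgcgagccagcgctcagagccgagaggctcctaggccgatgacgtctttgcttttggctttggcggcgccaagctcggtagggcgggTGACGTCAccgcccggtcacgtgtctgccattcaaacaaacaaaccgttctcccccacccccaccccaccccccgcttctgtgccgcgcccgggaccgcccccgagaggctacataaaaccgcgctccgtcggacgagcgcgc
Chac1 promoter: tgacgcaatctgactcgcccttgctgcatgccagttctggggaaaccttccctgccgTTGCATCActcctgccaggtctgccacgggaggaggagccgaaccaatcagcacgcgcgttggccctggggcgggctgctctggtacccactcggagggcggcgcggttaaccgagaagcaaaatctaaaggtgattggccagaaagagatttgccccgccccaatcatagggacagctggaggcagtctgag
The Ppp1r15a promoter held TGACGTCA from base -12 to -5 before the start, and a GAAANNGAAA match from -220 to -211. Among 32851 promoters of this length, 1.546% held TGACGTCA and 2.977% held GAAANNGAAA. Dusp1 shared TGACGTCA, from -143 to -136. Fos and Nr4a1, whose levels also followed that of Ppp1r15a, held none of the motifs searched. Chac1 held TGATGNAA, which 3.452% of promoters held, and Ppp1r15a did not hold it in this window. Among other genes of the ATF4 and CHOP response that were read, Asns held TGATGNAA, while Atf4, Ddit3 and Trib3 did not. Among the kinase genes, Eif2ak1 had a GAANNTTC match from -31 to -24 (in 6.694% of promoters) and Eif2ak3 a TGANTCA match from -185 to -179 (in 6.749%), while the windows of Eif2ak2, Gcn1 and both starts of Eif2ak4 held none of these letters. A match or its absence describes the letters only. Which factors bind these promoters was not tested.

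For the comparison of genotypes, log2(RPKM + 0.1) was fitted with limma for 10177 genes with a mean of at least 0.1 RPKM, and a gene was called at a Benjamini-Hochberg adjusted p under 0.05 over all of them. Of all genes tested, 3.94% were called, 2.98% higher and 0.963% lower in Sel1l CKO. None of the 6 members was called by limma, and limma voom on recovered reads also called 0. Of the 6, 1 had an unadjusted limma p under 0.05, against 2019 of all 10177 genes tested. The groups did not overlap for 1 of the 6 members, Ppp1r15b, against 13.7% of all genes. Fold changes are Sel1l CKO over control on the log2(RPKM + 0.1) scale, and errors of RPKM are SD over 4 samples. The labels number the replicates without naming mice, and the study's methods describe its replicates as biologically independent. In bulk samples, fewer cells of a type and less RNA per cell cannot be told apart.

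**Figure D1:**
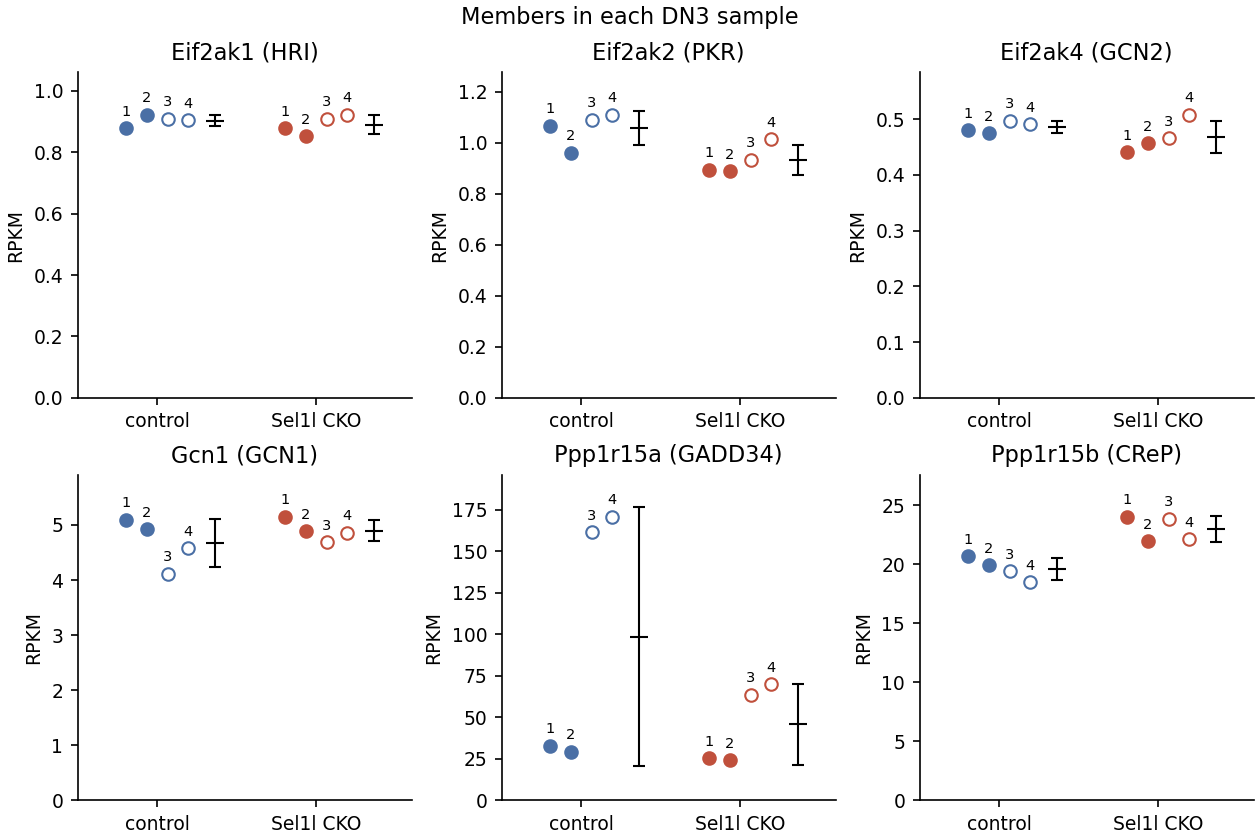
RPKM (linear axis from 0) of the 6 members in each sample of control (blue) and Sel1l CKO (red), with the replicate number above each point, filled points for replicates 1 and 2, open points for replicates 3 and 4, and the mean ± SD of the 4 samples as a black bar. The kinases and Gcn1 overlap between genotypes, Ppp1r15b lies higher in all 4 Sel1l CKO samples, and Ppp1r15a is split by replicate, with 162 and 171 RPKM in control replicates 3 and 4.

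For the kinases other than PERK the genotypes overlapped, and none was called. Eif2ak1 (ENSMUSG00000029613.15, chr5:143817788-143904251, plus strand, GRCm38) was at 0.877, 0.921, 0.908 and 0.904 RPKM in the control samples and 0.878, 0.851, 0.908 and 0.922 RPKM in Sel1l CKO. The ranges lay over each other, with means of 0.903 ± 0.0186 and 0.890 ± 0.0315 RPKM. The log2 fold change was -0.02 (standard error, SE, 0.063, adjusted p = 0.888 by limma), and its 95% interval ran from 0.894-fold to 1.09-fold. Between 2584 and 3806 reads per sample stood behind these values. Ankrd61 and Aimp2 overlap the Eif2ak1 span on the other strand. The libraries were made with a stranded kit, but it is not stated whether the counting used the strand, so reads of the overlapping genes may be split.

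Eif2ak2 (ENSMUSG00000024079.4, chr17:78852564-78882573, minus strand), the interferon-inducible kinase PKR, was at 1.07, 0.962, 1.09 and 1.11 RPKM in the control samples and at 0.895, 0.889, 0.933 and 1.01 RPKM in Sel1l CKO. Control replicate 2 fell among the Sel1l CKO samples, while the other 3 control samples lay above all of them. The means were 1.06 ± 0.0660 and 0.932 ± 0.0570 RPKM, a log2 fold change of -0.16 (SE 0.075, adjusted p = 0.267 by limma, exact permutation test p = 0.0571). Replicates 1 and 2 alone gave -0.17 and replicates 3 and 4 alone -0.16, and the 95% interval of the fold ran from 0.793 to 1.004. It did not pass the test. Eif2ak2 had the fewest reads of the members, from 921 to 1379, and counting alone then gives an error of up to 3.30%.

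Eif2ak4 (ENSMUSG00000005102.13, chr2:118388618-118475234, plus strand), the amino acid sensing kinase GCN2, was at 0.480, 0.475, 0.498 and 0.491 RPKM in the control samples and at 0.441, 0.457, 0.466 and 0.508 RPKM in Sel1l CKO. In Sel1l CKO, 3 samples lay below every control sample and the fourth above every one. The log2 fold change was -0.05 (SE 0.071, adjusted p = 0.746 by limma), with a 95% interval of 0.866-fold to 1.08-fold. Gcn1 (ENSMUSG00000041638.18, chr5:115565254-115622654, plus strand), the ribosome-bound partner that GCN2 needs, was at 5.10, 4.92, 4.11 and 4.58 RPKM in the control samples and at 5.15, 4.88, 4.69 and 4.85 RPKM in Sel1l CKO. Its log2 fold change was 0.07 (SE 0.077, adjusted p = 0.655 by limma), with a 95% interval of 0.928-fold to 1.184-fold. The kinase and its partner thus had ranges that overlapped between genotypes.

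PERK, the fourth kinase and no member, was called higher in Sel1l CKO. Eif2ak3 (ENSMUSG00000031668.14, chr6:70844515-70905245, plus strand) was at 0.906, 0.733, 0.889 and 0.7996 RPKM in the control samples and at 1.13, 1.11, 1.47 and 1.48 RPKM in Sel1l CKO, so that every Sel1l CKO sample was above every control sample. The log2 fold change was 0.58 (SE 0.117, adjusted p = 0.0296 by limma). The call was kept in 2 of the 8 fits that left out 1 sample, with adjusted p from 0.0252 to 0.0855. To compare kinases directly, the ratio of Eif2ak3 to Eif2ak4 was taken within each sample, where library scaling cancels. On exon length it was 1.64, 1.34, 1.55 and 1.41 in control and 2.23, 2.10, 2.73 and 2.53 in Sel1l CKO. The log2 ratio was 0.69 higher in Sel1l CKO (two-sided exact permutation p = 0.0286, the lowest that 4 samples against 4 allow), 0.55 within replicates 1 and 2 and 0.83 within replicates 3 and 4. Eif2ak3 alone gave the same exact permutation p, so that of the ratio is not separate evidence.

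**Figure D2:**
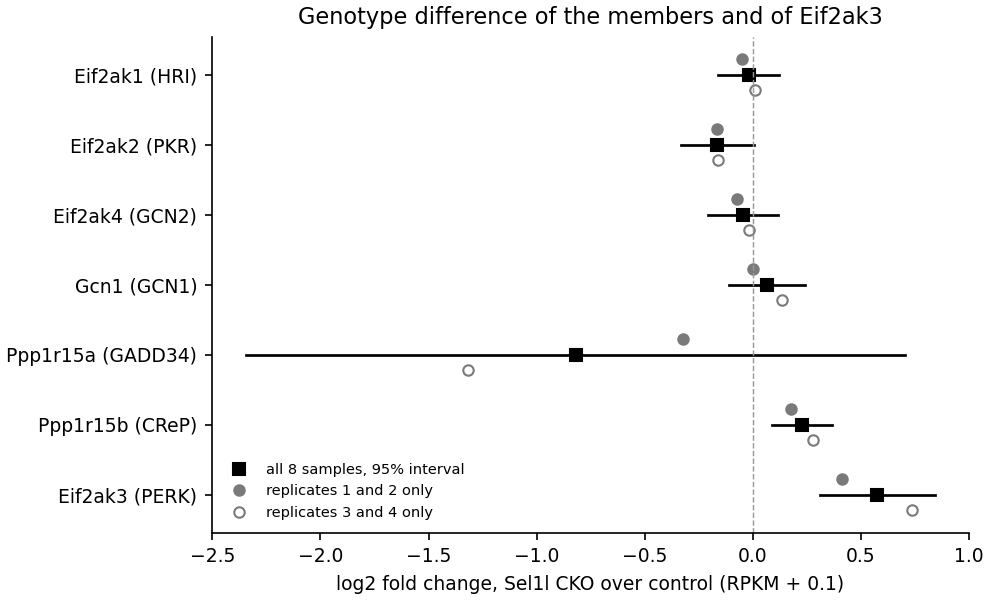
Log2 fold change of Sel1l CKO over control on RPKM + 0.1 (linear axis) for the 6 members and Eif2ak3, with black squares and 95% limma intervals for all 8 samples, filled circles for replicates 1 and 2 and open circles for replicates 3 and 4. The intervals are not adjusted over genes. Those of Ppp1r15b (0.09 to 0.37), which was not called, and of Eif2ak3, which was called, exclude 0. The interval of Ppp1r15a (-2.34 to 0.70) is the widest.

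On exon length the members could be ordered. In control, Eif2ak4 (5.65 ± 0.118 RPKM on exon length) and Eif2ak2 (6.20 ± 0.387) were lowest and overlapped each other. Eif2ak3 (8.38 ± 0.815) came next, without overlap with either neighbour, and was followed by Eif2ak1 (13.8 ± 0.284) and Gcn1 (15.1 ± 1.40), which overlapped. Ppp1r15b stood higher at 30.3 ± 1.42, and Ppp1r15a was highest in every control sample, from 33.2 to 195. In Sel1l CKO the order of the means was the same, but Eif2ak3 (11.1 to 14.9) now overlapped Eif2ak1 (13.0 to 14.1), Gcn1 (15.1 to 16.6) no longer did, and Ppp1r15a (27.6 to 79.7) lay on both sides of Ppp1r15b (33.9 to 37.1). Gene models differ in how much of their exon length a thymocyte uses, which limits such levels.

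**Figure D3:**
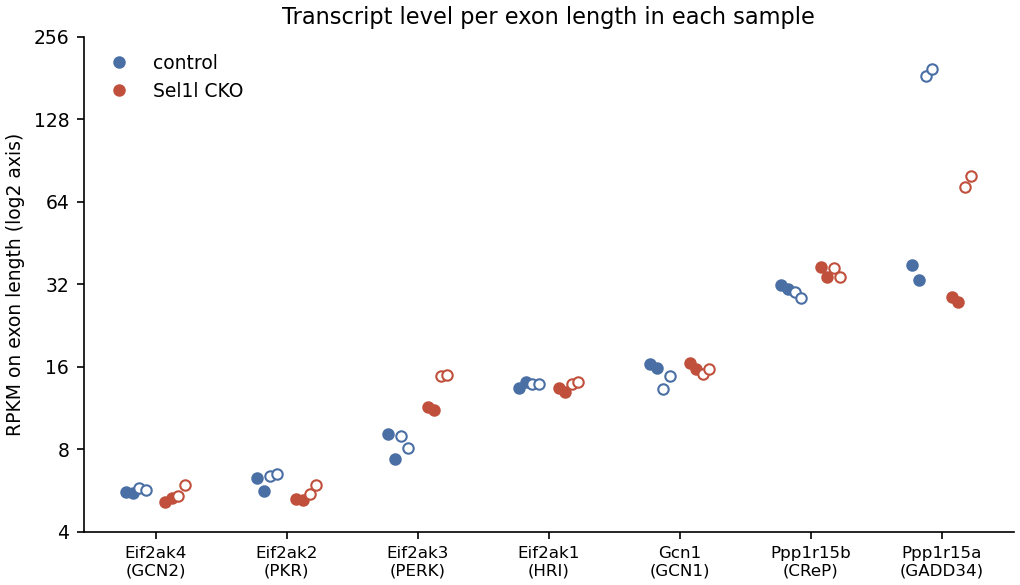
Level per exon length (RPKM on exon length, log2 axis) of the kinases, Gcn1 and the phosphatase subunits in each control (blue) and Sel1l CKO (red) sample, with filled points for replicates 1 and 2 and open points for replicates 3 and 4. The kinases lie between 5.12 and 14.9, Eif2ak3 is the kinase whose genotypes are apart, and the 2 phosphatase subunits lie above all kinases.

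The kinase messages were also taken as shares of their sum, as a description with no test. The 4 kinases summed to 34.0 ± 1.01 RPKM on exon length in control and 37.5 ± 3.09 in Sel1l CKO (32.6 to 34.98 and 34.7 to 40.8). The share of Eif2ak3 was 24.6% ± 1.79 in control and 34.6% ± 2.72 in Sel1l CKO. That of Eif2ak1 was 40.5% ± 1.83 and 36.3% ± 1.78, that of Eif2ak2 18.2% ± 0.741 and 14.6% ± 0.540, and that of Eif2ak4 16.6% ± 0.295 and 14.5% ± 0.665. For none of the 4 shares did the genotypes overlap, and since the shares add up to the whole, a larger one lowers the others. Eif2ak1 remained the largest share in all control samples, and Eif2ak3 was larger than Eif2ak1 in Sel1l CKO replicates 3 (37.4% against 35.1%) and 4 (36.6% against 34.4%).

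Of the phosphatase subunits, the constitutive one lay slightly higher in Sel1l CKO, at an adjusted p above the threshold. Ppp1r15b (ENSMUSG00000046062.5, chr1:133131143-133139783, plus strand) was at 20.6, 19.9, 19.4 and 18.4 RPKM in the control samples and at 24.0, 21.9, 23.8 and 22.1 RPKM in Sel1l CKO. All 4 Sel1l CKO samples lay above all control samples, with means of 23.0 ± 1.10 and 19.6 ± 0.922 RPKM, 1.17 times apart. The log2 fold change was 0.23 (SE 0.061, adjusted p = 0.0803 by limma, exact permutation test p = 0.0286), 0.18 within replicates 1 and 2 and 0.28 within replicates 3 and 4. The adjusted p was above the threshold in the fit of all samples and in 22 of 23 alternatives, and below it with limma array weights (adjusted p = 0.0403). It rested on 5900 to 9555 reads per sample.

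Ppp1r15a (ENSMUSG00000040435.12, chr7:45522916-45526268, minus strand), the inducible subunit GADD34, varied more among replicates than between genotypes. Its level was 32.8, 29.1, 161.6 and 170.7 RPKM for control replicates 1 to 4, against 25.2, 24.1, 63.6 and 69.8 RPKM in the same order for Sel1l CKO. Replicates 3 and 4 were high in both genotypes, 5.37 times replicates 1 and 2 in control and 2.703 times in Sel1l CKO, and within each pair of replicates both Sel1l CKO samples lay below both control samples. The means were 98.5 ± 78.2 and 45.7 ± 24.4 RPKM, and the log2 fold change of -0.82 (SE 0.672, adjusted p = 0.519 by limma, exact permutation test p = 0.286) did not pass the test. It ran from -0.40 without control replicate 4 and -0.43 without control replicate 3 to -1.25 without control replicate 2 when 1 sample was left out, and was -0.32 with limma array weights. With a term for replicates 3 and 4 against 1 and 2, the same fold change had an SE of 0.184 and an adjusted p of 0.0394. Ppp1r15a was then the 1 member called, against 5.88% of all genes. The labels name no such split, and Ppp1r15a itself differed across it. This call is therefore not independent of the choice of the split. Tulp2 overlaps the gene on the other strand.

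The size of the Ppp1r15a difference was then compared between the pairs of replicates. The log2 fold change was -0.32 within replicates 1 and 2 (30.9 against 24.7 RPKM) and -1.32 within replicates 3 and 4 (166 against 66.7 RPKM). The difference of -0.99 between them (SE 0.119, with an unadjusted p of 6.9e-05 in the limma interaction fit across all genes) had an adjusted p of 0.0619 and did not pass, at rank 10 of the 10177 genes by p. Interaction terms passed for 0 genes in limma, with 1720 at an unadjusted p under 0.05. The other members had interaction adjusted p from 0.576 to 0.995. The difference of replicates 3 and 4 from 1 and 2 itself was 1.93 for Ppp1r15a (SE 0.184, adjusted p = 0.00316 by limma), rank 21 of 10177 genes, and Ppp1r15a was the 1 member called for it, against 0.992% of all genes. Sel1l itself had log2 fold changes of -0.89 within replicates 1 and 2 and -0.30 within replicates 3 and 4. The interaction term for Sel1l had an adjusted p of 0.128 by limma. What separated these replicates was not tested.

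Within each sample, the ratio of Ppp1r15a to Ppp1r15b compares the inducible with the constitutive subunit. On exon length it was 1.175, 1.08, 6.16 and 6.84 in control and 0.777, 0.813, 1.97 and 2.33 in Sel1l CKO. The inducible message was thus the lesser one in Sel1l CKO replicates 1 and 2 and the greater one in the other samples. The log2 ratio was 1.87 ± 1.46 in control and 0.821 ± 0.834 in Sel1l CKO on RPKM as deposited, a difference of -1.05 (exact permutation test, two-sided, p = 0.286), which is less than the spread between control samples. Replicates 1 and 2 alone gave -0.50, and replicates 3 and 4 alone -1.60. With 1 sample left out, the difference ran from -0.60 without control replicate 4 and -0.65 without control replicate 3 to -1.49 without control replicate 2.

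The genes whose deviations from their genotype mean were most like those of Ppp1r15a, among 6511 genes with a mean of at least 1 RPKM, were Fos (Pearson r = 0.997 over 8 samples), Dusp1 (r = 0.993) and Nr4a1 (r = 0.990), which are immediate early genes. These points share libraries, and the values rest on the gap between replicates 3 and 4 and replicates 1 and 2. Fos was at 37.8, 31.96, 188 and 239 RPKM in the control samples and 25.7, 21.04, 68.0 and 78.1 RPKM in Sel1l CKO, the same order of pairs as Ppp1r15a. Dusp1 was at 18.2, 15.6, 81.6 and 70.5 RPKM in the control samples and 11.8, 10.3, 31.2 and 32.4 RPKM in Sel1l CKO. The SD of these deviations was 1.07 (log2) for Ppp1r15a and between 0.0350 and 0.0945 for the other 5 members. For those, the likest genes were Dmac2 for Eif2ak1 (r = 0.991), Zfp598 for Eif2ak2 (r = 0.970), Rps6kb2 for Eif2ak4 (r = 0.978), Exo5 for Gcn1 (r = 0.982) and Rbbp5 for Ppp1r15b (r = 0.978), in each case over 8 samples and on deviations of that small size.

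**Figure D4:**
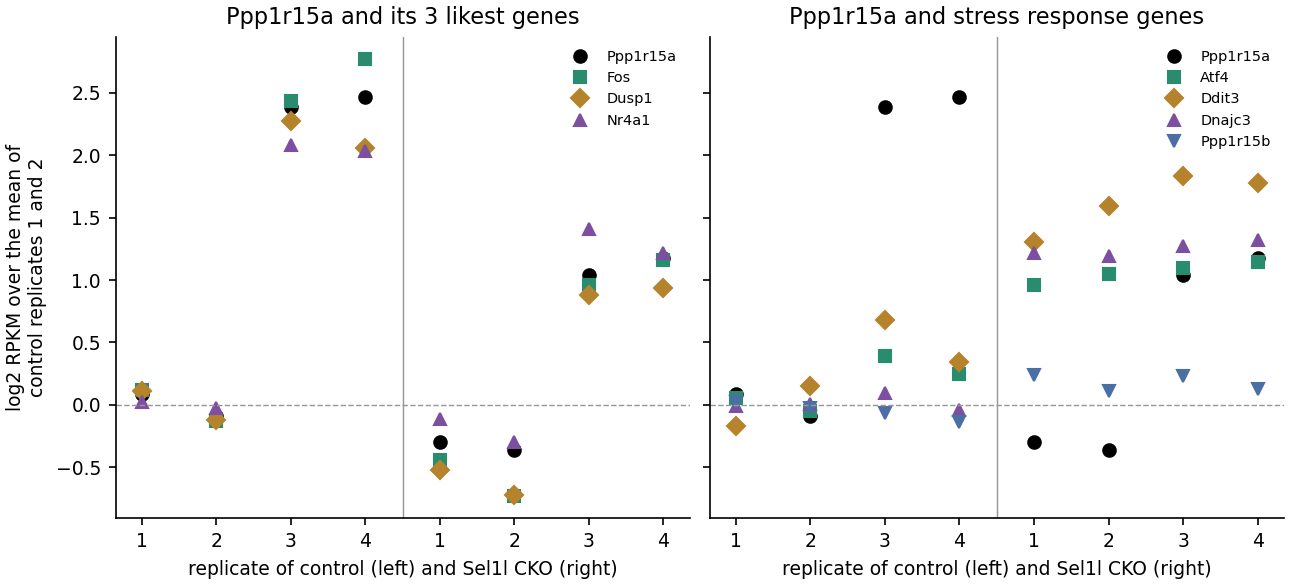
Log2 RPKM of each sample over the mean of control replicates 1 and 2, with control on the left and Sel1l CKO on the right of the vertical line in each panel. Ppp1r15a follows Fos, Dusp1 and Nr4a1 (left panel), high in replicates 3 and 4, whereas Atf4, Ddit3, Dnajc3 and Ppp1r15b (right panel) are higher in Sel1l CKO than in control in all 4 replicates.

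The wider list of 18 immediate early genes, transcription factors and signal regulators that rise within minutes of stimulation, had a median log2 fold change of -0.947 against -0.011 over all genes tested. Limma called 0 of the 18, and voom called 1 of 9 lower. Of the 18, 3 had an unadjusted limma p under 0.05, against 2019 of all 10177 genes tested. With the term for replicates 3 and 4, 8 of 18 were lower and 0 higher, against 225 lower and 373 higher of all 10177 genes tested. In replicates 3 and 4, 12 of 18 were higher than in 1 and 2, against 97 of all genes tested. Replicates 1 and 2 alone had a median of -0.323 and replicates 3 and 4 alone one of -1.37. Of 18 cytosolic heat shock genes, 7 fell (Chordc1, Hsp90aa1, Hspa4l, Dnaja1, Hsph1, Hspa1b and Hspa1a) and 0 rose, with 3 to 7 called when 1 sample was left out (3 without control replicate 1, control replicate 4 or any 1 Sel1l CKO sample). Over all genes tested, 0.963% were called lower and 2.98% higher. In replicates 1 and 2 only, limma called 0 of the 17 heat shock genes tested. In that fit 8 of the 17 had an unadjusted p under 0.05, against 2738 of all 10138 genes tested. Over all samples the median of the heat shock genes was -0.439. Between replicates 3 and 4 and replicates 1 and 2, limma called 0 of the 18 heat shock genes (1 at an unadjusted p under 0.05), with a median difference of 0.1 (log2) against 1.535 for the immediate early genes. Hspa1a, named for its wide range after its values were seen, was at 33.3 RPKM on average in control replicates 1 and 2. It was at 760 RPKM in control replicates 3 and 4. In Sel1l CKO it was at 5.47 RPKM in replicates 1 and 2 and 2.64 RPKM in replicates 3 and 4. Unlike Ppp1r15a, it was thus not higher in replicates 3 and 4 of Sel1l CKO. Both lists were chosen with earlier results of these data known, and their part in the level of Ppp1r15a was not tested.

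Most other known targets of ATF4 and CHOP that were tested rose in Sel1l CKO. Of 20 genes of the ATF4-CHOP effector list, 16 passed the filter, and 12 of these rose while 0 fell, with a median log2 fold change of 1.201. Over all genes tested, 2.98% were called higher and 0.963% lower, and the median was -0.011. Atf3, Slc7a11, Aldh1l2 and Vldlr lay under the filter and were not tested. Atf3 was at 0.00258, 0, 0.114 and 0.178 RPKM in the control samples and at 0, 0.00166, 0.00827 and 0.0140 RPKM in Sel1l CKO. The means of Slc7a11, Aldh1l2 and Vldlr were higher in Sel1l CKO. Atf4, the transcription factor translated when eIF2α is phosphorylated, was at 106, 98.3, 134 and 121 RPKM in the control samples and 198, 211, 218 and 225 RPKM in Sel1l CKO (log2 fold change 0.90, SE 0.099, adjusted p = 0.00108 by limma). Ddit3, which encodes CHOP, was at 2.04, 2.56, 3.68 and 2.93 RPKM in the control samples and at 5.68, 6.96, 8.20 and 7.91 RPKM in Sel1l CKO (log2 fold change 1.34, SE 0.179, adjusted p = 0.0034 by limma). Chac1, a glutathione-degrading enzyme, was listed at 0.0546, 0, 0 and 0 RPKM in the control samples and at 2.01, 2.72, 3.48 and 2.58 RPKM in Sel1l CKO. Both known activators of Ppp1r15a were thus higher at the message level in all 4 Sel1l CKO samples. Ppp1r15a was lower within each pair of replicates, a split that the labels do not name. Over all samples its ranges overlapped between genotypes and it was not called (adjusted p = 0.519 by limma). The part of Atf4 and Ddit3 in the level of Ppp1r15a was not tested.

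Further genes of that list passed as well. Trib3, a pseudokinase that feeds back on CHOP and lay at 0.0854 ± 0.0399 RPKM in control, rose by 4.39 on the log2 scale, Asns, asparagine synthetase, by 4.36 and Atf5, a related transcription factor, by 2.98. Sesn2, Gpt2, Mthfd2, Psat1, Slc3a2 and Phgdh also rose. Of the tested genes, 4 did not pass, with log2 fold changes of -0.18 for Ddit4, -0.01 for Cebpb, 0.29 for Cebpg and 2.05 for Nupr1. Between 8 and 11 of the list were called when 1 sample was left out, with 8 without any 1 of the control samples or Sel1l CKO replicate 4, and 4 with replicates 1 and 2 only. This list holds genes known from earlier results of these samples, so its count is not independent evidence of its direction.

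**Figure D5:**
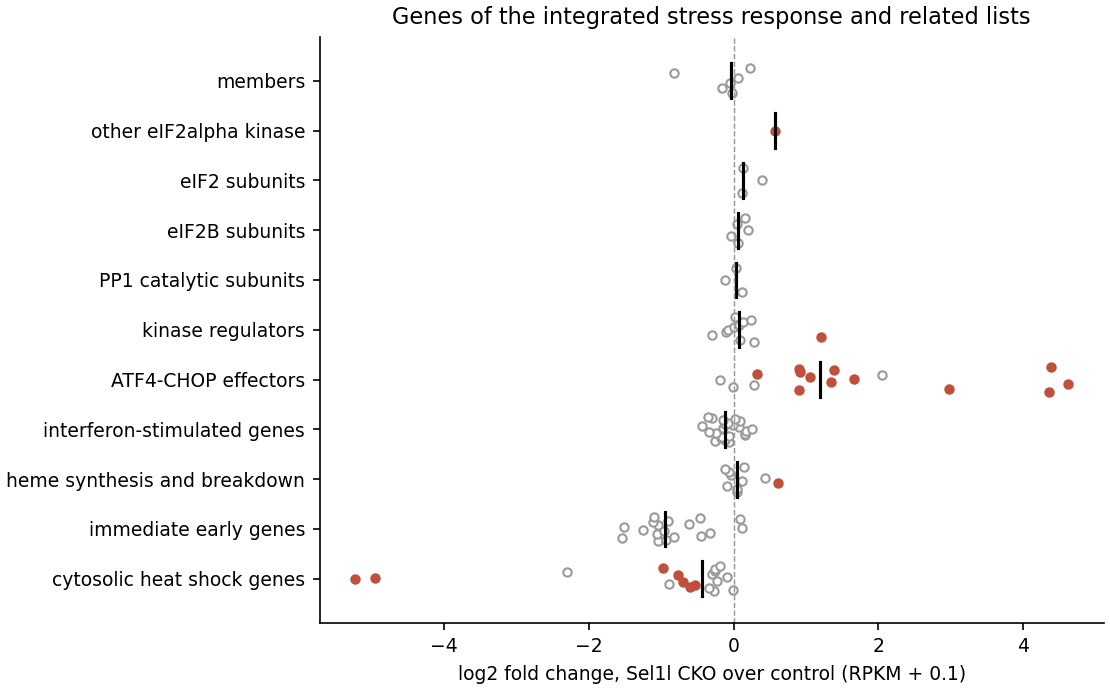
Log2 fold change of Sel1l CKO over control (RPKM + 0.1, linear axis) for every tested gene of each list, with red filled points for genes at a limma adjusted p under 0.05, grey open points for the others and black bars for list medians. The ATF4-CHOP effectors lie to the right (median 1.201), the immediate early and heat shock genes to the left (medians -0.947 and -0.439), and the members and the subunits of eIF2, eIF2B and PP1 near 0, with Ppp1r15a as the member at -0.82.

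No transcript of the eIF2, eIF2B or PP1 catalytic subunits was called. Limma called 0 of 3 eIF2 subunits (median 0.126; 1 at an unadjusted p under 0.05), 0 of 5 eIF2B subunits (median 0.061; 0 at an unadjusted p under 0.05) and 0 of 3 PP1 catalytic subunits (median 0.036; 0 at an unadjusted p under 0.05), and voom called 0 of each. Eif2s2, the β subunit of eIF2, had the largest log2 fold change among these genes and was at 7.04 ± 0.705 RPKM in control samples and 9.42 ± 2.08 RPKM in Sel1l CKO (log2 fold change 0.40, limma adjusted p = 0.180). Eif2s1, which encodes eIF2α itself, was at 5.63 ± 0.190 and 6.16 ± 0.826 RPKM (log2 fold change 0.12, limma adjusted p = 0.504). Ppp1ca, the α catalytic subunit of PP1, was at 157 ± 3.65 and 172 ± 13.4 RPKM (log2 fold change 0.12, limma adjusted p = 0.344).

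Among 12 regulators of the kinases, 11 passed the filter and 1 rose, where 2.98% of all genes tested rose. This was Dnajc3, whose product p58IPK is known as an inhibitor of PKR and PERK and as an ER co-chaperone, at 2.40, 2.43, 2.59 and 2.35 RPKM in the control samples and 5.63, 5.52, 5.83 and 6.03 RPKM in Sel1l CKO (log2 fold change 1.202, SE 0.060, adjusted p = 1.2e-05 by limma). Impact, an inhibitor that competes for GCN1, was at 1.5 ± 0.169 and 1.24 ± 0.415 RPKM (log2 fold change -0.30, limma adjusted p = 0.446). Abcf3, the mammalian relative of the yeast GCN2 partner Gcn20, was at 4.31 ± 0.290 and 5.25 ± 0.399 RPKM without overlap (log2 fold change 0.28, limma adjusted p = 0.0891).

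Genes tied to interferon, which induces PKR, and to heme, whose lack HRI senses, were counted in the same way. They measure neither double-stranded RNA nor the level of heme. Limma called 0 of 23 interferon-stimulated genes (1 at an unadjusted p under 0.05, voom 0 of 19), with a median of -0.123 over all samples, -0.366 in replicates 1 and 2 alone and 0.174 in replicates 3 and 4 alone. Isg15 was at 11.4 ± 2.96 and 13.0 ± 4.38 RPKM, and Irf9, a subunit of the interferon-activated factor ISGF3, at 8.10 ± 0.593 and 6.50 ± 1.46 RPKM (limma adjusted p = 0.743 and 0.248). Of 10 genes of heme synthesis and breakdown, 1 rose and 0 fell, against 2.98% and 0.963% of all genes tested, with a median of 0.052. The risen gene was Cpox, an enzyme of heme synthesis, from 2.99 ± 0.0986 to 4.61 ± 0.125 RPKM (log2 fold change 0.61, limma adjusted p = 4.4e-04). Transcript levels do not measure kinase or phosphatase activity.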

How the data were processed

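RNA-seq of DN3 thymocytes was analysed from 4 control and 4 Sel1l CKO samples, grouped by the genotype in the labels. The authors aligned reads with STAR 2.5.2b to GRCm38, used HTSeq to count reads of protein-coding genes, and deposited these as RPKM in a table with 1 column per sample; their own test used DESeq2 on counts, which were not used here. Depth, from 32900253 to 50401359 reads per sample, was recovered from the RPKM steps with GENCODE M21 gene spans, which matched 16501 genes (208 by an older symbol). It covers counting error only, and long introns lower RPKM.

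Values were transformed to log2(RPKM + 0.1), filtered at a mean of 0.1 RPKM and tested with limma 3.58.1 (R 4.3.3; genotype alone, with a mean-variance trend, Benjamini-Hochberg adjustment, checked on simulated data). Single ratios and genes were tested with exact two-sided permutation tests in Python 3.11.15 (numpy 2.4.6, scipy 1.17.1). Named genes are the 6 members, Sel1l, genes of the lists described and the likest genes of each member by r. The members and lists were chosen with earlier results of these data known. Siglech and Ncr1 were not analysed here, and 2 genes of the lists are not reported here. Alternatives covered pseudocounts, filters, scaling, weights, the trend, replicate terms, limma voom and leaving out each sample.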

Additional observations from a re-analysis of the deposited data

Results flagged for a closer look

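In 60 groups of 4 samples (30 genes in each genotype), 2 had a sample far from the other 3 by Dixon's criterion, and chance would give 3.0 (about 1 group in 20). Chac1 in control replicate 1 was at 0.0546 RPKM against 0 in the other 3 control samples, and Cpox in Sel1l CKO replicate 4 was at 4.42 RPKM against 4.66 to 4.69 in the other 3. None of the 6 members was among them.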

How the results depend on the processing

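Members that were not called stayed uncalled under each alternative, with these exceptions. Ppp1r15a passed with the term for replicates 3 and 4 (log2 fold change -0.82) and in replicates 3 and 4 only (-1.32, adjusted p = 0.00515), and Ppp1r15b passed with limma array weights (0.24). Eif2ak1, close to 0 in all fits, changed sign with quantile normalization (0.017), array weights (0.0061) and replicates 3 and 4 only (0.012), and Eif2ak4 did with quantile normalization (0.012). Eif2ak2, Gcn1, Ppp1r15a and Ppp1r15b kept their direction in every fit. The call of Eif2ak3 was kept in 13 of 22 alternatives and its direction in all 22. Genes called, 401 over all samples, numbered 218 at a mean of at least 5 RPKM (2709 genes tested), 657 with array weights and 234 to 345 with 1 sample left out, the lowest being 234, 258, 240 and 249 without control replicates 1 to 4. Dnajc3 and Cpox were not among the genes of the voom fit, since their spans gave no whole reads. The ratio of Eif2ak3 to Eif2ak4 was 0.62 to 0.75 with 1 sample left out, where the smallest exact p possible is 0.0571. In fits chosen after seeing the data, as the interaction was, 351 genes were called in replicates 1 and 2 only and 281 in replicates 3 and 4 only. With a replicate block, 292 genes were called and no member changed its call, the log2 ratio of Eif2ak3 to Eif2ak4 was 0.69 (4 pairs cannot go below an exact p of 0.125), and that of Ppp1r15a to Ppp1r15b -1.05. The deviations of same-numbered samples correlated at 0.114, 0.078, 0.312 and 0.019 across genes for replicates 1 to 4, and not every sample correlated best with its own number, so the numbers were not taken to pair samples.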
